A study of Mus musculus with 2 samples.

Results

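EP300 peaks in the liver of newborn mice were described around 10 genes of bile duct fate and Notch signalling. The genes were the transcription factors Sox9 and Sox4, the duct cell keratins Krt7 and Krt19, the epithelial adhesion gene Epcam, the secreted protein gene Spp1, the receptors Notch1 and Notch2, the ligand Jag1 and the Notch target Hes1. They were chosen by name, with earlier results of these data known, out of 21755 protein-coding genes of GENCODE M21 on chromosomes 1 to 19 and X. EP300 (p300) acetylates histones at enhancers and promoters, where transcription factors bring it, and chromatin immunoprecipitation followed by sequencing (ChIP-seq) finds the DNA it sits on. The series held 1 group of 2 replicates, whole liver of strain B6NCrl at an age of 0 days, with sex marked as not collected and no treatment or mutant allele in the labels. Both replicates carried the same biosample and donor labels, so the difference between them may be technical, and there was no second group to compare with. A summit, the base where a peak is highest, counted for a gene when it lay within 50 kb of any annotated transcription start site (TSS) of that gene in the authors' optimal list, which they made from both replicates with the irreproducible discovery rate (IDR). By that rule 33 of the 26844 summits analysed belonged to the 10 genes, or 0.123%.

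As background, bile ducts form in the fetal and newborn liver where bipotent hepatoblasts next to the portal vein turn into duct cells instead of hepatocytes. Portal mesenchyme presents the ligand Jag1, Notch receptors on the hepatoblasts are cut and release their intracellular part, and this part joins the DNA-binding protein RBPJ, with Mastermind proteins that bring EP300, to switch on target genes such as Hes1. Sox9 and Sox4 act in the cells that take the duct fate, and loss of one copy of JAG1 or NOTCH2 in humans causes Alagille syndrome, in which bile ducts are sparse. Duct cells are a small share of the cells of a newborn liver, which still makes blood.

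EP300 summits were found near the receptors, near Hes1, and near Sox4 and Spp1, and near none of the others. Notch1 had 14 summits, Notch2 had 11, Sox4 had 4, Hes1 had 3 and Spp1 had 1, while Sox9, Krt7, Krt19, Epcam and Jag1 had none within 50 kb. Thus 5 of the 10 genes (50%) had a summit, beside 66.5% of all protein-coding genes under the same rule. Within 10 kb 4 genes had a summit (Hes1, Notch1, Notch2 and Sox4), beside 41.3% of all genes, and within 100 kb 9 had one (all but Krt19), beside 77.2%. When a summit counted only for the protein-coding gene with the nearest start, the same 5 genes had one, beside 41.5% of all genes. The summits are whole-tissue values, in which fewer cells of a type and less EP300 per cell cannot be told apart. No test was run on these counts, since the sites share their libraries and the 10 genes are not replicates.

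The height of a peak is given as the authors' signal value, a number per peak from the peak caller whose scale is not stated, so peaks are ranked by it inside 1 list, and setting it side by side for both replicates describes how their values differ and no more. The 33 summits had signal values of 10.6 to 168 with a median of 35.7, against 7.32 to 633 with a median of 38.3 in the whole optimal list. Of the 33, 14 lay above the median of the list, 2 in its highest 10% and 8 in its lowest 20%. Both in the highest 10% belonged to Notch2.

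**Figure D1:**
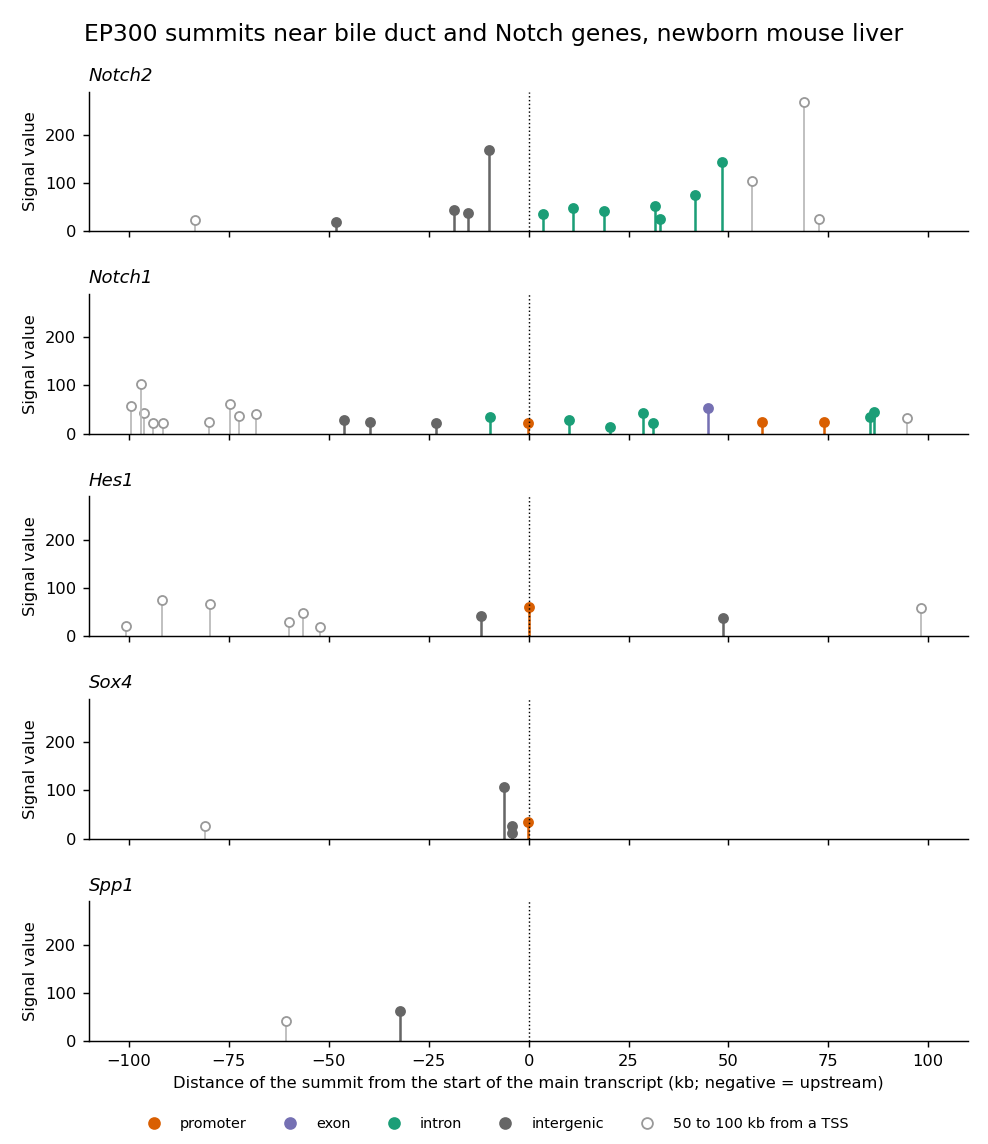
Signal value (vertical axis, the authors' unit) of each EP300 summit of the optimal list against its distance in kb from the start of the main transcript (horizontal axis, negative is upstream), for the 5 genes with a summit. Filled points lie within 50 kb of any TSS of the gene and are coloured by place, and open points lie 50 to 100 kb from one. Notch2 holds the highest summits, 168 and 143 within 50 kb and 268 beyond, and the 14 summits of Notch1 stay between 14.4 and 54.0.

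The sequence under the summits of Notch2, Sox4 and Spp1 is shown first, since these genes had the highest values. Each line below gives 101 bases of GRCm38 (mm10), plus strand, 50 on each side of the summit, and capitals mark the GATA letters AGATAA or their reverse complement. The windows are chr3:98003690-98003790 and chr3:98061772-98061872 at Notch2, chr13:28959814-28959914 at Sox4 and chr5:104402788-104402888 at Spp1. The second Notch2 window held none of the motifs searched.
Notch2, 9.79 kb upstream: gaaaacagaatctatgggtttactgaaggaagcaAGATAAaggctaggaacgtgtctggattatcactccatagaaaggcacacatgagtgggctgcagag
Notch2, intron, 48.3 kb downstream: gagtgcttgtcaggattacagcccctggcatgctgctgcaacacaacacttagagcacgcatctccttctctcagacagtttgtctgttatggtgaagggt
Sox4, 6.15 kb upstream: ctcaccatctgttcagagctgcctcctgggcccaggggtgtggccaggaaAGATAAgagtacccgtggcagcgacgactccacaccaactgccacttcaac
Spp1, 32.3 kb upstream: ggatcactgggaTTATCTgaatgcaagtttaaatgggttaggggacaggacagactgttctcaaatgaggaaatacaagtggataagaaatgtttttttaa
The 3 windows with capitals were the only ones of the 33 with the GATA letters, 9.09%, against 22.3% of all 26844 windows of the optimal list. Those at Notch2 and Sox4 were the strongest summits of their genes within 50 kb, and Spp1 had only 1 summit.

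Notch2, a receptor of the duct fate, lies on chromosome 3 at 98013527-98150361 (plus strand) and had the highest EP300 signal of the 10 genes. Its strongest summit within 50 kb, at 98003740 and 9.79 kb upstream of the gene, had a signal of 168 and rank 1627 in the optimal list. The matched peaks had signals of 101.5 in replicate 1 and 66.2 in replicate 2, and ranks of 1841 and 1415 in the lists of those replicates. The next, at 98061822 and 48.3 kb into the gene, had 143 in the optimal list, 92.0 in replicate 1 and 52.1 in replicate 2. Both replicates thus placed these summits among their highest peaks. Of the 11 summits, 4 lay upstream between genes and 7 in Notch2 introns, and none lay within 1 kb of its start.

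The remaining intronic summits of Notch2 had signals of 74.5 at 98055104, 53.1 at 98045176, 47.6 at 98024612, 42.9 at 98032497, 35.7 at 98017131 and 24.2 at 98046529. The remaining upstream summits had 43.9 at 97995002, 36.8 at 97998502 and 18.3 at 97965237. All 11 had a matched peak in both replicates, and for 9 of them the matched peaks were among the highest peaks of both replicates, which are the 26844 with the highest signal in each, as many as the optimal list holds. The weakest, 97965237 at 48.3 kb upstream, had the highest ratio of replicate 1 to replicate 2 of the 30 summits with a peak in both, with 21.04 (rank 18131) in replicate 1 and 3.51 (rank 269901) in replicate 2. For each of the 11, Notch2 was the protein-coding gene with the nearest start. As many summits as Notch2 were found at 3.04% of all genes, and its strongest signal was reached by 16.8% of the genes with a summit.

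The 50 kb limit cuts through Notch2, which is 137 kb long. Its gene body held 10 summits, and the strongest of them lay outside the limit, 68.9 kb from the nearest start at 98082407, with a signal of 268 and rank 664. There the matched peaks had 169 in replicate 1 and 95.4 in replicate 2. Another intronic summit just outside, 55.9 kb from the start at 98069425, had 104 in the optimal list, 65.2 in replicate 1 and 35.3 in replicate 2. The introns of Notch2 thus held their highest signal beyond the limit.

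Letters of the CEBP motif, TTGCNNAA, were found at 8 of the 33 windows (24.2%), 4 at Notch2 and 4 at Notch1, against 8.93% of all windows. Of those counted for Notch1, the summit at 26429911 lay in a Sec16a promoter and that at 26550039 was nearest to Egfl7. CEBP factors are regulators of hepatocytes and myeloid cells. The strongest Notch2 windows with them are chr3:98024562-98024662, chr3:97994952-97995052 and chr3:97998452-97998552, and the strongest of Notch1 is chr2:26475162-26475262, all plus strand. Capitals mark the CEBP letters on either strand, in the first line also a TEAD match (GGAATG), and in the last a SOX match (ACAATNG) that overlaps the CEBP match.
Notch2, intron, 11.1 kb downstream: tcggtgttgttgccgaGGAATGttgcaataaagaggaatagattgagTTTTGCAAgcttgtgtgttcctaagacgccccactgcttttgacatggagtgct
Notch2, 18.5 kb upstream: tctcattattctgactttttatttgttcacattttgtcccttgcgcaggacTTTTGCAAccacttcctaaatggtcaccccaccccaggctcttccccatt
Notch2, 15.0 kb upstream: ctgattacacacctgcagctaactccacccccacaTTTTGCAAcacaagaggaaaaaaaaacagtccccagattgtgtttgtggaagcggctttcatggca
Notch1, intron: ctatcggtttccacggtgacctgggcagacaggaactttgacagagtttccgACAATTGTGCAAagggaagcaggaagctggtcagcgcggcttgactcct
The fourth Notch2 window with these letters was that of the weakest summit, 97965237. None of the windows at Hes1, Sox4 and Spp1 held them. A match describes letters and not a bound protein, and with 12 motifs counted over 33 windows no test was made of any share.

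Notch1, the other receptor, lies on chromosome 2 at 26457903-26516663 (minus strand) and had 14 summits in the optimal list, with none above 54.0. The order of Notch1 and Notch2 by number of summits depended on the list: among the highest peaks Notch1 had 9 and Notch2 10 without replicate 1, and 10 and 11 without replicate 2, and both had 9 in the conservative list. The 14 signals of Notch1 ran from 14.4 to 54.0 with a median of 26.0, and 11 of the 14 lay below the median of the optimal list. The strongest, at 26459048 in an exon by the 3′ end of the gene, had 54.0 in the optimal list, 38.0 in replicate 1 and 14.6 in replicate 2. In an intron at 26475212 the signal was 42.5, with 26.7 in replicate 1 and 15.2 in replicate 2. At the start of the main transcript a promoter summit, 26503866, had 22.5 in the optimal list and 20.2 in replicate 1, and no peak of replicate 2 overlapped it. The summits at 26472602 (22.0) and 26483481 (14.4), both in Notch1 introns, also had no peak in replicate 2. Only 6 of the 14 had matched peaks among the highest of both replicates, and 2 were among the highest of neither.

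The count for Notch1 depended on its many starts and on its neighbours. It has 11 annotated starts, so 154 kb were searched, against a median of 103 kb over all genes. As many summits were found at 1.04% of all genes, and as many per 100 kb searched (9.10) at 2.87%. For Notch2 the summits per 100 kb were 11.0, a value reached by 1.47% of genes, and the median gene had 1.20. Notch1 had the nearest protein-coding start for 9 of its 14 summits, Sec16a for 4 and Egfl7 for 1. Of the 4 at Sec16a, a gene of protein export from the endoplasmic reticulum, 2 were in its promoters (24.5 each, at 26445342 and 26429911) and 2 in its introns (43.9 at 26417280 and 35.4 at 26418426). The Egfl7 summit, at 26550039, had 28.3 in the optimal list, 13.6 in replicate 1 and 14.4 in replicate 2 (ranks 31624 and 12016). Egfl7 is a gene of the endothelium. With starts of protein-coding transcripts only, Notch1 had 10 summits. Between 50 and 100 kb there were 10 more, of which the strongest, 103 at 26600866, lay in an Agpat2 intron.

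**Figure D2:**
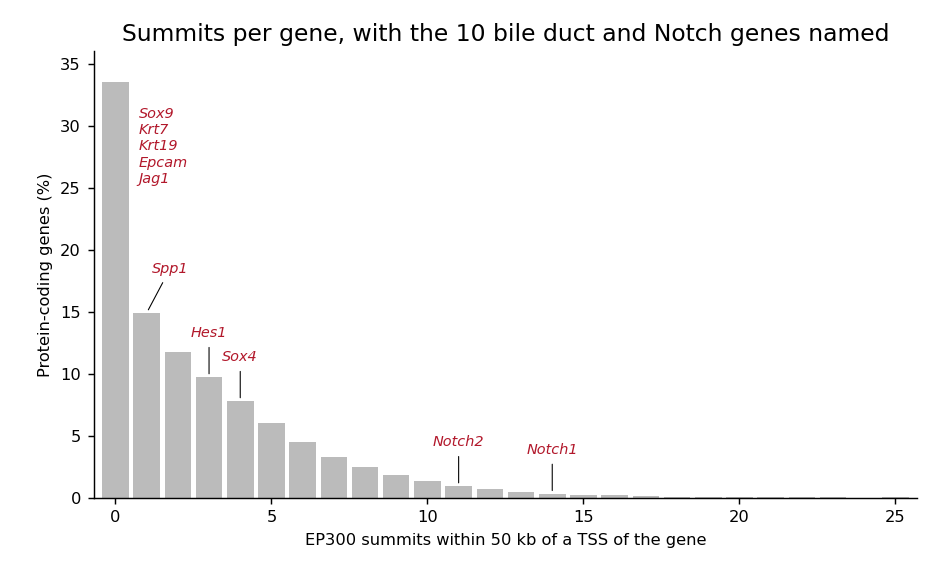
Share of the 21755 protein-coding genes (vertical axis, %) by the number of optimal-list summits within 50 kb of a TSS (horizontal axis, drawn to 25, with a maximum of 37), with the 10 genes named at their counts. The 5 genes at 0 stand in the highest bar, and Notch2 with 11 and Notch1 with 14 lie in the tail.

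Hes1, a transcriptional repressor and direct Notch target, lies on chromosome 16 at 30064384-30067796 (plus strand) and had 3 summits. Its promoter summit, at 30065366 and 26 bases downstream of the nearest start, had a signal of 60.1 and rank 7284, with 40.8 in replicate 1 and 23.8 in replicate 2. The summit 10.9 kb upstream, at 30053453, had 41.2 in the optimal list, 26.0 in replicate 1 and 14.4 in replicate 2. The one 47.7 kb downstream, at 30114036, had 37.0, with 22.7 in replicate 1 and 12.3 in replicate 2. All 3 were among the highest peaks of both replicates and in the conservative list, the authors' other IDR list. That list held 2 more within 50 kb of Hes1, at 30036234 (35.0) and 30068871 (18.2), which the optimal list did not. In the highest 26844 peaks of either replicate alone, Hes1 had 6 within 50 kb, against 3 in the optimal list. Beyond the limit, 7 more summits lay 50 to 100 kb from Hes1, with signals of 18.9 to 74.0, and Hes1 had the nearest protein-coding start for all of them. Among the 5 genes with a summit, Hes1 and Spp1 were the only ones with every summit matched among the highest peaks of both replicates.

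RBPJ is the protein through which Notch signalling reaches DNA, and its letters, GTGGGAA, were found at 2 of the 33 windows (6.06%), against 1.96% of all windows. These were chr13:28957916-28958016, 4.25 kb upstream of Sox4, and chr2:26526954-26527054, 10.3 kb upstream of the nearest Notch1 start. No Hes1 window held them, and the upstream Hes1 window chr16:30053403-30053503 held a SOX match (ACAATNG) and an AP-1 match (TGANTCA). The sequences are from the plus strand, with RBPJ letters in capitals in the first and second line and the SOX and AP-1 letters in the third.
Sox4, 4.25 kb upstream: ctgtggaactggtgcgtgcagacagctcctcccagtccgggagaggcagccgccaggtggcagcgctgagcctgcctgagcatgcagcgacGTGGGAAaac
Notch1, 10.3 kb upstream: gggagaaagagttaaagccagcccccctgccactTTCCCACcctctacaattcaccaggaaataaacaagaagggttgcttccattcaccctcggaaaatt
Hes1, 10.9 kb upstream: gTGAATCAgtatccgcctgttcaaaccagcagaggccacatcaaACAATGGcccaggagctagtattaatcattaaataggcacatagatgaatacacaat
Both summits with the RBPJ letters were weak, with signals of 10.6 and 22.6, neither was in the conservative list, and the replicate 2 peaks matched to them (5.37 and 6.74) were not among its highest. In the 250 bases before a start, the RefSeq promoter table (GRCm38.p6) had entries for Notch1, Jag1, Notch2, Sox4, Krt7, Epcam and Spp1. None held the RBPJ letters, which occurred in 5.42% of the 32851 promoters of the table. Hes1, Sox9 and Krt19 had no entry, so their promoters were not searched in this way. At Hes1 the only promoter sequence searched was the window of its promoter summit, chr16:30065316-30065416. Whether the Hes1 promoter holds the letters outside that window was not examined.

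Sox4, a transcription factor of duct formation beside Sox9, lies on chromosome 13 at 28948919-28953713 (minus strand) and had 4 summits, all of them upstream and within 10 kb. The strongest, at 28959864 and 6.15 kb upstream, had a signal of 107 and rank 3224, with 80.2 in replicate 1 and 25.1 in replicate 2. The promoter summit, at 28953964 and 0.251 kb upstream, had 35.1, with 21 in replicate 1 and 14.1 in replicate 2. The remaining summits, at 28957747 (26.5) and 28957966 (10.6), lay 219 bases apart. Their strongest overlapping peaks were the same, 20.8 in replicate 1 and 5.37 (rank 82161) in replicate 2. Both overlapped 2 peaks of replicate 1 and 1 of replicate 2. The conservative list left out this pair and held another Sox4 summit, 10.6 kb downstream at 28943108 with a signal of 23.4. Among the highest peaks Sox4 had 2 summits without replicate 1 and 3 without replicate 2.

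Spp1 encodes osteopontin, a secreted protein of duct cells, and lies on chromosome 5 at 104435118-104441050 (plus strand). Its single summit, between genes at 104402838 and 32.3 kb upstream, had a signal of 61.8 and rank 6985. The matched peaks had 43.3 in replicate 1 and 18.3 in replicate 2, with ranks of 6644 and 8668. It lay in both sets of highest peaks and in the conservative list, and no other protein-coding gene had a start within 50 kb of it. A further summit 60.7 kb upstream, at 104374411 with a signal of 41.9, was nearest to Mepe.

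The 5 genes without a summit were the ligand, the transcription factor Sox9 and the 3 genes of the duct cell surface and skeleton. Jag1 (chromosome 2 at 137081456-137116644, minus strand) had its nearest summit 52.9 kb upstream, just outside the limit, with a signal of 26.5, and Jag1 was the nearest gene. Epcam (chromosome 17 at 87635979-87651129, plus strand) had its nearest 52.7 kb away, with 20.1, and no peak of replicate 2 matched it. The nearest summits of Sox9 (chromosome 11 at 112782224-112787760, plus strand) lay 61.3 and 61.6 kb upstream, with signals of 24.0 and 32.0, and shared their strongest overlapping peak in each replicate. Krt7 (chromosome 15 at 101411043-101430313, plus strand) had its nearest at 90.1 kb, with 55.9. Krt19 (chromosome 11 at 100140810-100148665, minus strand) had its nearest at 167 kb, with 59.8, close to Eif1. Over all genes the median distance to the nearest summit was 18.5 kb. A greater distance was found for 32.7% of genes than for Epcam, 32.6% than for Jag1, 30.2% than for Sox9, 24.4% than for Krt7 and 16.6% than for Krt19. Absence from the optimal list is a statement about a thresholded list, and the lists give no read depth.

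The longer lists of each replicate, 300000 peaks each, did hold peaks near these 5 genes, and all but 1 of the strongest ranked outside the highest 26844. For Jag1 the strongest had signals of 12.0 in replicate 1 (rank 37256) and 7.46 in replicate 2 (rank 33138), and these were the same site, with summits 37 bases apart 37.4 kb upstream. Called on both replicates together it had 21.2 and rank 28589. On that scale, which the optimal list repeats, the weakest counted summits of Sox4 (10.6), Notch1 (14.4) and Notch2 (18.3) were lower. Those of Hes1 (37.0) and Spp1 (61.8) were higher. For Epcam the strongest were 12.5 in replicate 1 (rank 35084) and 9.02 in replicate 2 (rank 23354), at different sites 35.3 kb apart. The replicate 2 peak, at 87637477, was among the highest of that replicate, and no replicate 1 peak overlapped it. It lay inside Epcam, 0.795 kb downstream of an annotated start other than the main one at 87635979, and counted as promoter only by that start. For Sox9 the values were 10.7 (rank 43921) and 5.90 (rank 61525), for Krt7 9.54 (rank 53718) and 6.54 (rank 45583), and for Krt19 8.35 (rank 72030) and 5.70 (rank 68632), with replicate 1 first. The strongest peaks of Sox9, Krt7 and Krt19 were at different sites in the replicates. The median gene had its strongest peak at rank 10867 in replicate 1 and 11525.5 in replicate 2. By number of peaks within 50 kb, Jag1 with 17 and 12 was near the median gene with 16 and 15, and Krt19 with 2 and 3 was the lowest of the 10.

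**Figure D3:**
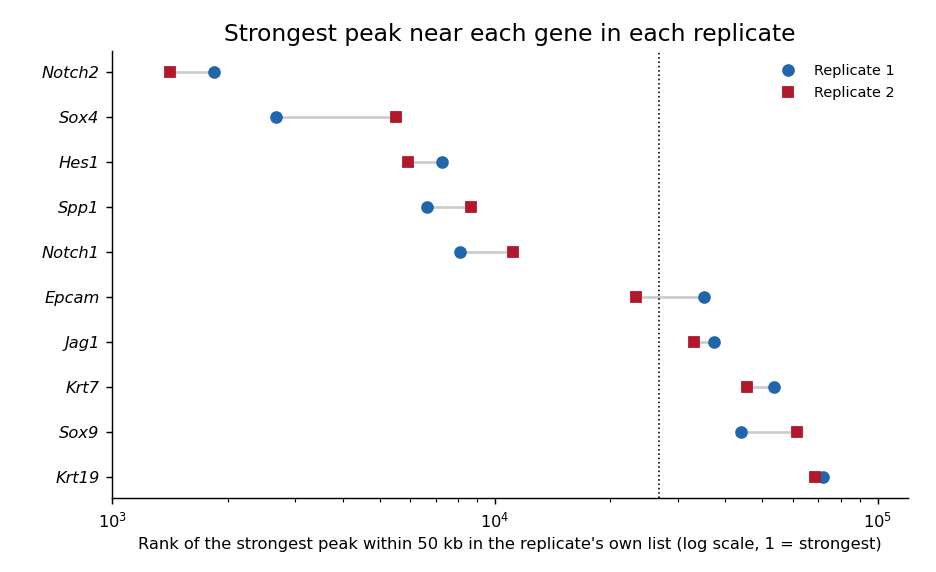
Rank (horizontal axis, log scale, 1 is strongest) of the strongest peak within 50 kb of each of the 10 genes in the list of replicate 1 (circles) and of replicate 2 (squares). The dotted line marks rank 26844, the size of the optimal list. The 5 genes with a summit lie left of it in both replicates, and of the other 5 only Epcam in replicate 2 does, at rank 23354.

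Most of the 33 summits had an overlapping peak in both replicates, and the signal values of the replicates differed. The optimal list was made from these replicates and each of their lists holds 300000 peaks, so overlap is partly built in. All 33 had an overlapping peak in replicate 1 and 30 in replicate 2, against 99.8% and 95.9% of all optimal peaks. Among the highest peaks, 28 were matched in replicate 1 and 24 in replicate 2, 21 in both and 2 in neither, against 85.9%, 76.4%, 67.9% and 5.63% of all. The matched peak is the strongest that overlapped, and these were 32 distinct peaks of replicate 1 and 29 of replicate 2. More than 1 peak overlapped at 10 summits in replicate 1 and at 4 in replicate 2. The replicate summits lay a median of 5 bases (replicate 1) and 20.5 bases (replicate 2) away. Over the 30 summits with both values, the log2 ratio of replicate 1 to replicate 2 had a median of 1.05, an SD of 0.55 and a range of -0.08 to 2.58, against a median of 0.95 and an SD of 0.65 over 25702 optimal peaks. Signal values were thus lower in replicate 2 over the whole list, and by rank within each list 14 of the 30 stood higher in replicate 2. Spearman's rho between the replicates was 0.789 over the 30 summits, against 0.734 over all. These points share 2 libraries, and 2 of the 30 share their matched peaks, so rho is a description. The 24 summits in the conservative list were 72.7% of the 33, against 77.6% of all optimal peaks, and 17 of 33 had the highest IDR score, 1000, against 55.5% of all.

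**Figure D4:**
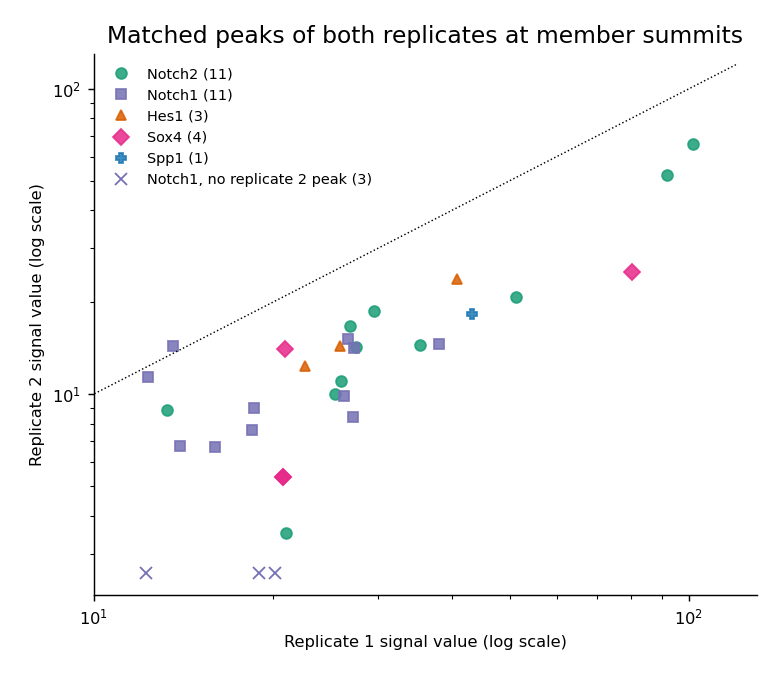
Signal values of the matched peaks in replicate 1 (horizontal axis, log scale) and replicate 2 (vertical axis, log scale) at the 33 summits, with a symbol for each gene. The dotted line marks equal values, which on the unstated scales of 2 lists is a guide only, and crosses at the bottom mark the 3 Notch1 summits with no replicate 2 peak. All but 1 of the 30 matched summits lie below the line, and the 2 highest are those of Notch2 at 168 and 143 in the optimal list.

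By place, 14 of the 33 summits were in introns, 13 between genes, 5 in promoters and 1 in an exon. A promoter here is 1 kb or less from any annotated start of a protein-coding gene, starts of its noncoding transcripts included. Of the 33, 12 lay within 10 kb of a start of their gene. The share of each place over the whole optimal list is not given, so these counts describe the 33 summits only. Of the 5 promoter summits, 3 were at the genes themselves (Hes1, Sox4 and Notch1) and 2 at Sec16a. The windows of 101 bases had a median GC content of 48.5%, against 47.5% over the list. By gene the median was 62.9% at Sox4, 55.4% at Notch1, 50.5% at Hes1, 46.5% at Notch2 and 36.6% at Spp1. Repeat-masked sequence made up more than 50% of 3 windows, those of the Sec16a introns and of the Sox4 promoter, against 3.74% of all windows. It was absent from 21 of the 33 windows, a count for which no share over the list is given. For the other motifs searched on both strands, the 33 windows held TEAD (GGAATG), SOX (ACAATNG), AP-1 (TGANTCA) and RUNX (TGTGGTT) letters in 2 windows each (6.06%), against 4.79%, 2.91%, 5.62% and 3.49% of all windows. HNF4 letters (CAAAGTNCA) were in 1 (3.03% against 1.70%), in the Notch2 intron at 98017131. FOXA (TGTTTAC), ONECUT (ATCAATA), ETS (CCGGAAG) and the composite of CTG 8 bases before AGATAA were in none, against 3.06%, 1.84%, 2.76% and 3.10%.

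Other genes of the Notch pathway were counted by the same rule. This list and the bile duct list below were drawn up with earlier results of these data known. Of 41, 38 (92.7%) had a summit within 50 kb, against 66.5% of all protein-coding genes, and their strongest signals had a median of 64.4, against 68.3 over all genes with a summit. The highest were near Heyl (422), Hes5 (226), Lfng (206), Notch3 (191) and Adam10 (175). The summits near Heyl and Hes5, which are Notch target genes, lay in a Pabpc4 intron and in the Tnfrsf14 promoter, and that near Lfng, a sugar transferase that modifies the receptors, lay in a Ttyh3 intron. The summits of Notch3, a receptor of vessel wall cells, and of Adam10, a protease that cuts Notch, lay 24.9 kb downstream and 8.40 kb upstream of the nearest start, and each was nearest to its own gene. Notch4, an endothelial receptor, had 112, in the Rnf5 promoter. Rbpj had a single summit, 9 bases from a start, with 42.4 in the optimal list, 23.1 in replicate 1 and 16.8 in replicate 2. The ligand Jag2 had 41.6 and the target Hey1 had 24.7. Dtx1 and Mfng were among those with none. When only summits nearest to the gene counted, 24 of the 41 (58.5%) had one, against 41.5% of all genes, and within 10 kb 22 (53.7%) had one, against 41.3%.

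Of 51 other genes of bile duct cells, 39 (76.5%) had a summit within 50 kb, against 66.5% of all genes, with a median strongest signal of 57.2. The highest were near the surface protein gene Cd24a (582), the water channel Aqp1 (439), the tight junction gene Cldn4 (303), the integrin Itgb4 (227) and Anxa4 (177). Of these only the Cd24a summit had that gene as the nearest, and the nearest of the others were Ghrhr, Cldn13, Unk and Aak1. Cd24a and Aqp1 are also expressed in red blood cells and their precursors. Yap1, a coactivator that drives duct fate, had a summit of 146 in its own intron, 1.77 kb from a start, with 94.0 in replicate 1 and 52.4 in replicate 2. Onecut1, a transcription factor of duct formation, had none within 50 kb, with its nearest at 54.1 kb. When only summits nearest to the gene counted, 25 (49.0%) had one, against 41.5% of all genes, and within 10 kb 16 (31.4%) had one, against 41.3%. The share thus lay above that of all genes at 50 kb and below it at 10 kb.

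Marker genes of the cells of this tissue were counted the same way, in sets of 3 to 6 genes, beside the 66.5% of all genes with a summit and their median strongest signal of 68.3. A summit lay near 6 of 6 erythroid genes (median strongest signal 329, range 182 to 604) and 5 of 5 hepatocyte genes (94.8, 52.5 to 129). The same held for 4 of 4 endothelial genes (95.6, 9.14 to 163) and 2 of 3 Kupffer cell genes (45.1, 31.5 to 58.7). The endothelial genes were unlike each other, with 163 at Kdr, 144 at Stab2, 46.7 at Pecam1 and 9.14 at Cdh5. The strongest summits of Hba-a1, Tal1, Apoa1, Afp, Stab2 and Csf1r were nearest to another gene. Of 4 genes of stellate cells and mesenchyme, Reln had 505, Des had 27.7, and Lrat and Pdgfrb had none. The 5 duct epithelium markers (Sox9, Krt7, Krt19, Epcam and Spp1) are all among the 10 genes, so that only Spp1 had a summit is no further result. The wider bile duct list had a summit within 50 kb at 76.5% of its genes. Counting only summits nearest to the gene it was 49.0%, against 41.5% of all genes, and within 10 kb 31.4%, against 41.3%. The lists hold peaks and no expression values, and the part of each cell type in the summits near Notch1, Notch2, Hes1 and Sox4 was not tested.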

How the data were processed

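ChIP-seq of EP300 was analysed from 5 peak lists on mouse build mm10: 1 for each of the 2 replicates, 1 called on both together, and the optimal and conservative IDR lists. Per the deposited descriptions, the authors called the first 3 on aligned reads against a control alignment and derived the IDR lists from them. The scale of the signal value, the read depth, the aligner, the caller and the IDR threshold were not given in the sources used here. Column 7 of each deposited list is the authors' signal value per peak, column 10 the summit's offset from the start, and column 5 of the IDR lists the authors' IDR score. The IDR lists repeat the signal of the list called on both replicates.

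Of 26883 optimal peaks, 39 outside chromosomes 1 to 19 and X were left out. Summits were assigned within 50 kb of any GENCODE M21 start of a gene (GRCm38) and placed as promoter, exon, intron or intergenic. Promoter meant 1 kb or less from a start of any transcript of a protein-coding gene. The nearest protein-coding start was likewise taken over all transcripts of such genes, noncoding ones included. A replicate peak matched when it overlapped an optimal peak by at least 1 base, and the highest peaks of a replicate were as many as the optimal list holds, by signal. Motif letters were searched on both strands in 50 bases on each side of a summit. Sequences came from GRCm38 and, for promoters, RefSeq (GRCm38.p6). Of 52 other bile duct genes listed, 1 (Anxa13) matched no protein-coding gene and was left out. Coordinates are 1-based. The files held 0 columns of other series. The counting was tested on simulated data. Python 3.11.15, pandas 2.3.3, numpy 2.4.6, scipy 1.17.1 and pysam 0.24.0 were used.

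The members and lists were chosen with earlier results of these data known. By rule, all 10 genes were named, and of the other lists the 5 genes with the highest signal and a set of fixed partners, of which some are not reported here. With 1 group and no control group, no test was made and every value is a description. Depth is unknown, so no interval is given. The alternatives were other distances, start sites, assignments, peak lists, matching rules and each replicate alone.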

Additional observations from a re-analysis of the deposited data

How the results depend on the processing

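No paired analysis was possible because the series has 1 group and no comparison between groups. Within 10 kb, in place of 50 kb, 12 summits were left near the 10 genes, 22 other Notch pathway genes had one and 16 other bile duct genes. Within 100 kb there were 61 summits and 9 of the 10 genes had one. Counting only summits nearest to the gene left 24 other Notch pathway genes and 25 other bile duct genes. In the upper 50% of the optimal list 14 summits remained, with a median signal of 53.6. With 1 replicate's list alone, 5 to 6 of the 10 genes had a summit (Epcam was gained without replicate 1), with 29 to 31 summits, 36 to 37 other Notch pathway genes and 39 to 40 other bile duct genes. The median signal was then 14.3 without replicate 1 and 26.1 without replicate 2, each on the scale of the replicate left. These alternatives by construction take more or fewer sites, or another signal scale. In all, 37 values under the alternatives stayed and 11 moved, where a count stayed within 1.5 times that reported and a median signal moved by less than 1 SD of the 2 medians from single replicates. Those 2 medians are themselves among the alternatives and lie on different scales, so the call for the median signal is only a convention. By gene, single replicates gave 9 and 10 summits at Notch1 (14 reported), 2 and 3 at Sox4 (4 reported) and 6 and 6 at Hes1 (3 reported), without replicate 1 and without replicate 2 in that order. The conservative list gave 27 summits at 5 genes. Read depth is unknown and sets what the lists could hold.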
